A study of Mus musculus with 16 samples.

Results

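Serpins are described here in mouse liver and quadriceps after delivery of a viral vector. The members are 31 genes whose symbol begins with Serpin followed by a clade letter from a to i, including the gene named Serpina4-ps1. They were taken by symbol from a table of 13701 genes, though the family was chosen with earlier results of these data known. Clade A had 17 of these members, clade B had 6, clade F had 2, and clades C, D, E, G, H and I had 1 each.

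Total RNA was sequenced from 16 libraries of bulk tissue of male C57BL/6J mice aged 12 to 14 weeks, collected on day 7 after adeno-associated virus. Both vectors carry the name AAV-DJ8-TGB in the labels, one with Yap1S5A and one with EGFP, called GFP in the sample titles. Yap1S5A is a form of the coactivator Yap1 with serines changed to alanine, which is known to escape the inhibitory kinases of the Hippo pathway, and the series design speaks of hepatic expression. Each vector had 4 liver and 4 quadriceps libraries, the label for treatment describes liver surgery that fits neither the titles nor the genotypes, and the GFP mice served as controls that had received a virus too. No label states that the 4 libraries of a group come from separate mice, so p-values measure the spread between these libraries and that spread may be technical.

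Serpins share a fold in which an exposed reactive loop acts as bait. An inhibitory serpin is cut by its target protease, snaps shut and traps the enzyme in a covalent complex, while some members have lost this activity and carry hormones or fold collagen instead. Hepatocytes secrete most of the serpins of plasma, among them antitrypsins, antithrombin and antiplasmin, whereas clade B members lack a classical signal peptide and act mainly inside cells.

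Libraries held 13817718 to 19215472 counts. Yap1 itself (mm10, chr9:7932001-8004596), the gene carried by the vector, stood at 47.1, 50.5, 53.2 and 55.1 CPM (counts scaled to the size of the library) in livers labelled Yap1S5A and at 74.1, 75.6, 69.9 and 81.5 CPM in GFP livers. It fell by 0.55 ± 0.12 on the log2 scale (edgeR quasi-likelihood test, Benjamini-Hochberg adjusted p = 0.00089), against the direction the label implies, and in quadriceps its log2 fold change was 0.26 ± 0.095 (edgeR adjusted p = 0.106). Whether the table counts reads of the vector's transcript is not given in the sources used here, and libraries are therefore called Yap1S5A-labelled. Hepatocyte markers summed to 127500 to 157940 CPM in liver libraries and muscle fibre markers to 116040 to 189800 CPM in quadriceps libraries, so the tissues carried their own defining transcripts.

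The vector comparison in liver asked which serpins differ after Yap1S5A, and most members moved. Of the 31 members 29 had enough counts to test. At an edgeR adjusted p under 0.05, 7 rose, beside 33.3% of the 12818 genes tested, and 16 fell, beside 30.3% of those genes. The clades went different ways: 13 of the 16 tested members of clade A fell and 1 rose, whereas 4 of the 5 tested members of clade B rose. The members' median log2 fold change was -0.51, against 0.03 over all genes tested. Groups did not overlap in 6 of the members that rose, beside 30.9% of tested genes, and in 15 of those that fell, beside 26.5%. The 31 members together held 2.15 ± 0.0615% of counts in Yap1S5A-labelled livers (mean ± SD, n = 4) and 4.19 ± 0.812% in GFP livers, and the exact two-sided permutation test gave p = 0.0286, the smallest that 4 against 4 allows. In bulk tissue, fewer cells of a type and less RNA per cell cannot be told apart.

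**Figure D1:**
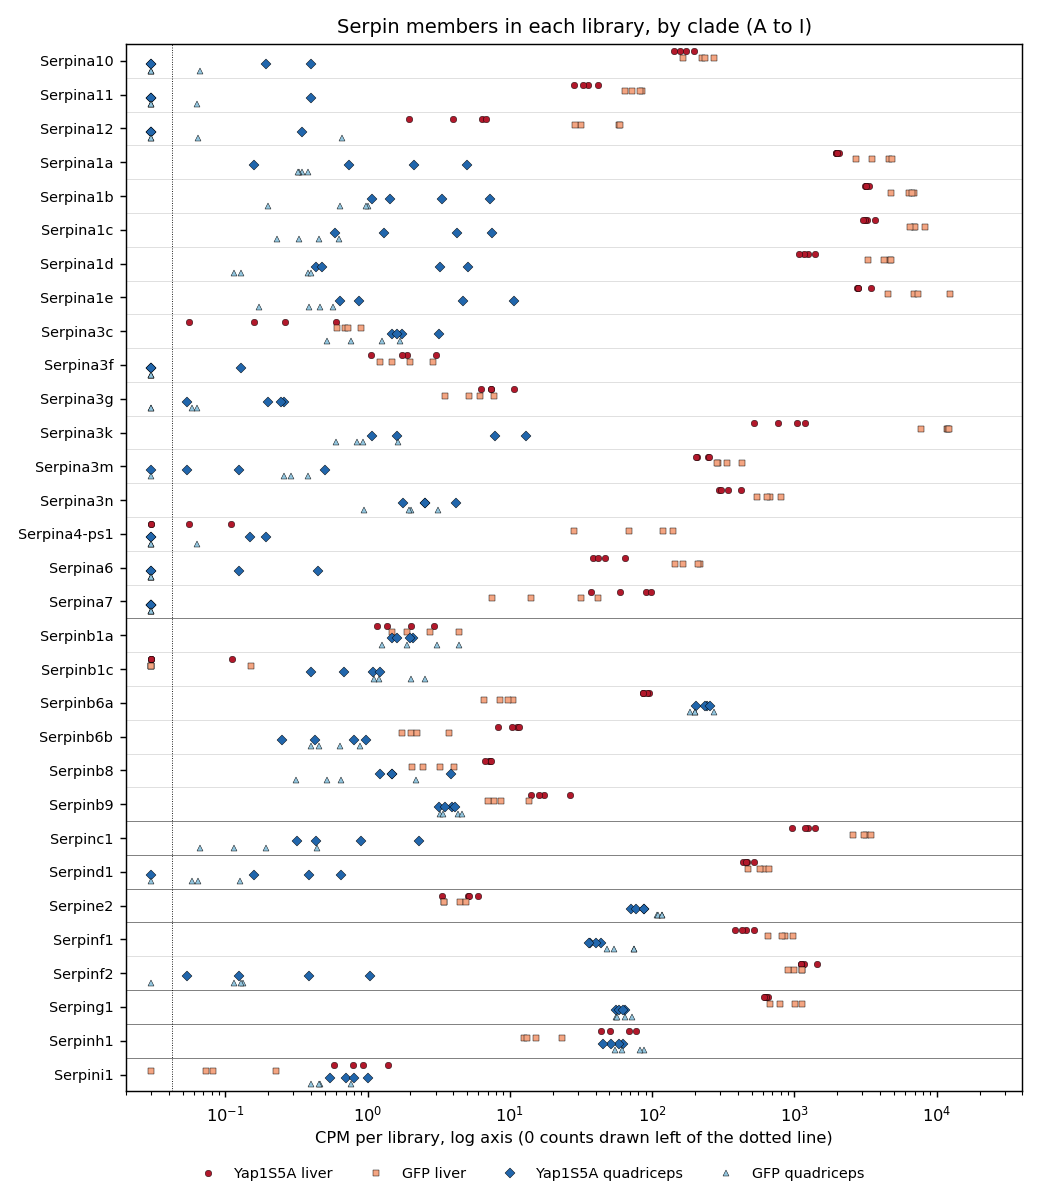
Level of each of the 31 Serpin members in each library, in CPM scaled within a tissue on a log axis, with libraries at 0 counts drawn left of the dotted line. Most clade A members sit above 10 CPM in liver and far lower in quadriceps, while Serpinb6a and Serpine2 sit higher in quadriceps than in liver.

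The Serpina1 genes encode the mouse forms of alpha-1-antitrypsin, known in humans as the main plasma inhibitor of neutrophil elastase. Mice carry several copies, and 5 of them, Serpina1a to Serpina1e, were in the table. Their coding sequences have the same length of 1239 bases and differ at 86 positions, with pairwise identity of 96.29 to 98.47%. A stretch of 60 bases holds 18 of the 86 differing positions. It is shown because it encodes part of the reactive loop, the bait for the protease, and because it holds many of the positions by which reads can tell the copies apart. The lines give coding bases 1101 to 1160, read 5′ to 3′ from the transcripts of GENCODE M21 (GRCm38, minus strand), with capitals at positions that differ among the copies.
Serpina1a, chr12:103853757-103853816: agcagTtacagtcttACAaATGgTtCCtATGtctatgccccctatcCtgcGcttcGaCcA
Serpina1b, chr12:103728324-103728383: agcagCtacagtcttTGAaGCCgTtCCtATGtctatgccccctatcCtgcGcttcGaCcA
Serpina1c, chr12:103895094-103895153: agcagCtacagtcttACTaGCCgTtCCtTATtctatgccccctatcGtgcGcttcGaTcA
Serpina1d, chr12:103763762-103763821: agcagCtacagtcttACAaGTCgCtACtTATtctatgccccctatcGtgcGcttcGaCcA
Serpina1e, chr12:103947100-103947159: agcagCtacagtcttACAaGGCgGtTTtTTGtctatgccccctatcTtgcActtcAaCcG

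All 5 copies fell in Yap1S5A-labelled livers. Serpina1a stood at 1950.1, 2059.5, 1973 and 1991 CPM in Yap1S5A-labelled livers and at 3488, 4590.4, 2706 and 4864 CPM in GFP livers. Serpina1b had 3174, 3145, 3318 and 3180.2 CPM against 6361, 6909, 4804 and 6709.8 CPM in the same order of groups. Neither copy had overlapping groups, and the GFP livers spread more widely. Serpina1c had 3234, 3133, 3700.2 and 3021 CPM against 6953, 7008, 6451 and 8223 CPM. Serpina1d had 1391, 1244, 1167 and 1075 CPM against 4667, 4797, 3272 and 4248 CPM. Serpina1e had 2746, 3456, 2795 and 2774 CPM against 6964, 12297, 4542 and 7409 CPM. In these copies too every Yap1S5A-labelled liver was below every GFP liver. The log2 fold changes were -0.97 ± 0.18 for Serpina1a, -0.95 ± 0.15 for Serpina1b, -1.13 ± 0.15 for Serpina1c, -1.80 ± 0.16 for Serpina1d and -1.41 ± 0.24 for Serpina1e (estimate ± SE, edgeR adjusted p from 3.4e-07 to 0.00030). Settings other than leaving 1 library out gave the smallest falls. These were -0.76 for Serpina1a, -0.52 for Serpina1b, -0.70 for Serpina1c, -1.37 for Serpina1d and -0.96 for Serpina1e. Every call held under those settings (adjusted p up to 0.0470).

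Because the copies are alike, single-copy values are uncertain. Of the windows of 100 bases along the transcripts, 40.8% of those of Serpina1a, 58.5% of Serpina1c, 26.3% of Serpina1d, 14.4% of Serpina1e and 13.8% of Serpina1b also occur in another gene, and how reads that fit several genes were counted is not given in the sources used here. Summed over the 5 copies, Yap1S5A-labelled livers had 12452 ± 595 CPM and GFP livers had 29731 ± 5764 CPM (mean ± SD, n = 4), a log2 fold change of -1.26 ± 0.17 (edgeR adjusted p = 1.1e-05). Within that sum Serpina1d took 9.65 ± 1.02% in Yap1S5A-labelled livers and 14.6 ± 1.41% in GFP livers, and Serpina1b took 25.4 ± 0.95% and 21.3 ± 1.33%. Groups did not overlap for either share, but the exact permutation test gave p = 0.0286 for each, the smallest possible, and 0.0714 after adjustment over the 5 copies. The shares of the other 3 copies overlapped between the groups.

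**Figure D2:**
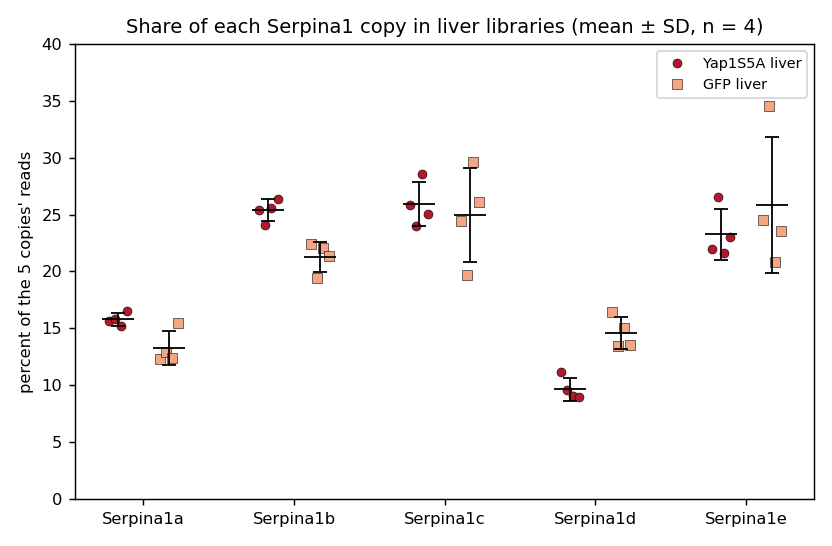
Percent of the reads of the 5 Serpina1 copies that each copy holds in each liver library, as points, with the mean and SD of each group of 4. Serpina1d lies lower and Serpina1b higher in Yap1S5A-labelled livers, and the other 3 copies overlap.

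The promoters of the 5 copies are nearly the same. Hepatocyte nuclear factor 1 (HNF1), a liver transcription factor, is known to bind the alpha-1-antitrypsin promoter, and its half-site GTTAAT was searched on both strands in RefSeq promoters (GRCm38.p6, from 250 bases before to 50 after the start). It was found in 8 of the 24 members with a promoter entry and in 7.1% of all 32851 promoters, and the remaining 7 members had no entry in the table used. The 8 were the 5 near-identical Serpina1 copies, Serpinb8 and Serpina7, which rose in liver, and Serpina3c, which was not tested there. It overlapped no match of the other motif searched here, and it lay between 16 and 78 bases before the annotated start in the 5 copies. The stretches below are shown because they are the shared sequence upstream of genes that fell together; the half-site is in capitals, all lie on the minus strand, and 60 of the 66 positions are the same in all copies.
Serpina1a, chr12:103863625-103863690: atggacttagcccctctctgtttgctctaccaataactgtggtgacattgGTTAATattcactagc
Serpina1b, chr12:103738200-103738265: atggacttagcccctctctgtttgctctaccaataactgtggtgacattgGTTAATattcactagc
Serpina1c, chr12:103904962-103905027: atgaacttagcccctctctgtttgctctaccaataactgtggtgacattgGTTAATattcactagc
Serpina1d, chr12:103773634-103773699: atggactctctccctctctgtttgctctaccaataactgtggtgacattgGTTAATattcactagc
Serpina1e, chr12:103956960-103957025: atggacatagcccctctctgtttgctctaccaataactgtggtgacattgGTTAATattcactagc

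The Serpina3 genes are the mouse relatives of human antichymotrypsin, also expanded into many copies, and 6 were in the table. Serpina3k, which had the highest level per kilobase of any member in GFP livers, at 6069 ± 1179 CPM per kb, fell furthest of the group. It stood at 1194, 766, 1036 and 523 CPM in Yap1S5A-labelled livers and at 11794, 12011, 7799.5 and 12227 CPM in GFP livers. Even the low GFP library, replicate 3, was several times above every Yap1S5A-labelled one, and the log2 fold change was -3.64 ± 0.26 (edgeR adjusted p = 2.9e-08). Serpina3n, an acute phase inhibitor that binds granzyme B, had 294, 421, 304 and 339.8 CPM against 671, 638, 545 and 808 CPM. Serpina3m had 246, 207, 249 and 204 CPM against 428, 289, 286 and 336 CPM. Both fell without overlap, by 0.97 ± 0.16 (edgeR adjusted p = 0.00013) and 0.56 ± 0.16 (edgeR adjusted p = 0.0064) on the log2 scale. For Serpina3m the call was lost once a trend of fold change with gene length was removed.

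Not every Serpina3 copy fell. Serpina3g, known in mice as an intracellular inhibitor of cathepsins in lymphoid cells, had 7.32, 10.6, 6.27 and 7.36 CPM against 6.13, 7.68, 3.50 and 5.17 CPM, with overlapping groups. Its log2 fold change of 0.49 ± 0.24 was not called (edgeR adjusted p = 0.0945). In 3 of 16 other settings it was called higher (lowest adjusted p = 0.0265), among them without GFP liver replicate 2 (0.67, adjusted p = 0.0312). Serpina3f had 1.89, 3.01, 1.75 and 1.05 CPM against 2.87, 1.98, 1.22 and 1.48 CPM and a log2 fold change of 0.03 ± 0.37 (edgeR adjusted p = 0.954). In the deposited gene models its exons share 147 bases with those of Serpina3g on the same strand, so reads there cannot be assigned to one of them. Serpina3c had at most 0.903 CPM in any liver and was not tested. Summed over the 6 copies, Serpina3 fell by 3.08 ± 0.20 on the log2 scale (edgeR adjusted p = 9.3e-09), a sum that is mostly Serpina3k.

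Hormone carriers of clade A went in opposite directions. Serpina6, the corticosteroid-binding globulin, had 64.6, 46.4, 38.1 and 41.8 CPM in Yap1S5A-labelled livers and 215, 211, 145 and 165 CPM in GFP livers. The groups were far apart, and the gene fell by 1.95 ± 0.19 on the log2 scale (edgeR adjusted p = 5.6e-07). Serpina7, the thyroxine-binding globulin and the only clade A member outside chromosome 12, had 90.4, 58.9, 98.5 and 37 CPM against 41.9, 31.5, 14 and 7.47 CPM. Its groups overlapped, since Yap1S5A replicate 4 lay below GFP replicate 1, and it rose by 1.58 ± 0.54 on the log2 scale (edgeR adjusted p = 0.0322). The call did not hold without Yap1S5A replicate 1 (adjusted p = 0.0905), Yap1S5A replicate 2 (0.0582), Yap1S5A replicate 3 (0.0777) or GFP replicate 3 (0.0911).

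The deepest fall was that of Serpina4-ps1, a gene named as a pseudogene related to human kallistatin. Its counts were 1, 0, 2 and 0 in Yap1S5A-labelled livers and 882, 1899, 373 and 1450 in GFP livers. The pooled ratio of GFP over Yap1S5A-labelled libraries was 2199.9, with an exact 95% interval of 752 to 10671 that covers counting error only, and edgeR called it lower with an adjusted p of 5.0e-06. That ratio rests on 3 counts, and the fitted log2 fold change of -10.84 went to -11.78 without Yap1S5A replicate 3, which holds 2 of them. Only the GFP livers brought the gene into the test. Serpina12 or vaspin, described as an adipokine that inhibits a kallikrein, fell by 3.22 ± 0.39 on the log2 scale (edgeR adjusted p = 4.3e-05), from 28.7 to 59.4 CPM in GFP livers to 1.94 to 6.76 CPM. Serpina11 fell by 1.14 ± 0.15 (edgeR adjusted p = 9.3e-06). Serpina10, which inhibits coagulation factor X in its active form together with protein Z, had overlapping groups and a log2 fold change of -0.43 ± 0.17 (edgeR adjusted p = 0.0361). That call was lost without Yap1S5A replicate 2 (adjusted p = 0.0588) or 3 (0.0723) and without GFP replicate 1 (0.0638), 2 (0.0713) or 4 (0.116), and under 3 other settings.

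The other 16 of the 17 clade A members lie within 798 kb of chromosome 12 (mm10, chr12:103616675-104414329), with Serpina10 at one end and Serpina3n at the other. All 9 genes from Serpina10 to Serpina12 lie on the minus strand and all 9 fell. Beyond Serpina4-ps1 the Serpina3 genes follow, and both members there that were not called, Serpina3f and Serpina3g, are neighbours. In the deposited gene models they start at the same base, chr12:104214544. The RefSeq start used for Serpina3g lies 21603 bases from that base. Serpina3k, further along, fell more than either of its later neighbours Serpina3m and Serpina3n.

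**Figure D3:**
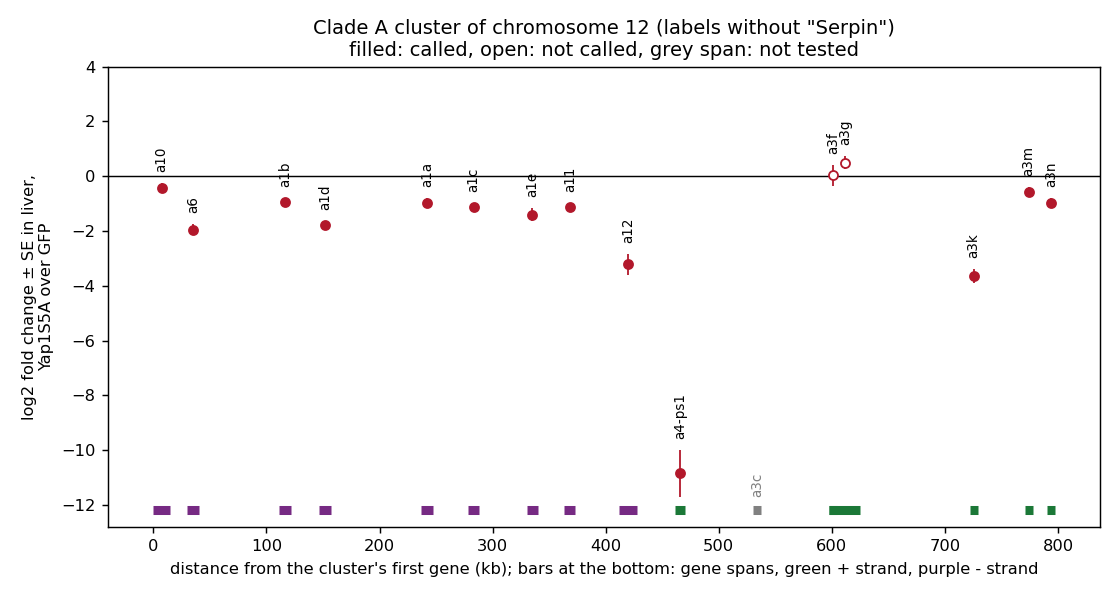
Log2 fold change in liver, Yap1S5A-labelled over GFP, with SE, for the clade A members of chromosome 12 against the distance in kb from the start of Serpina10. Called members all lie below 0, Serpina4-ps1 lies lowest at a fitted value that rests on 3 counts in Yap1S5A-labelled livers, and Serpina3f and Serpina3g sit near or above 0.

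Among the plasma inhibitors outside clade A, antithrombin fell and the others moved less. Serpinc1, antithrombin, the main inhibitor of thrombin, had 1388, 1243, 1184 and 959 CPM in Yap1S5A-labelled livers and 3187, 3463, 3073 and 2592 CPM in GFP livers. The groups were well apart and the gene fell by 1.37 ± 0.16 on the log2 scale (edgeR adjusted p = 4.0e-06). Serpinf1, the pigment epithelium-derived factor, which inhibits no protease, had 381, 516, 456 and 425 CPM against 851, 983, 819 and 649.6 CPM and fell by 0.89 ± 0.16 (edgeR adjusted p = 0.00020). Its fall was smallest at -0.49 across the settings run, and the call held in each. Serping1, the inhibitor of the first complement component and of plasma kallikrein, had 652, 619.7, 631 and 613 CPM against 787, 1127, 669 and 1004 CPM. Before scaling, its counts of 11576 to 11756 lay within the 8781 to 15405 counts of GFP livers. In CPM the Yap1S5A-labelled livers were tightly grouped just below the lowest GFP liver, and the gene fell by 0.51 ± 0.17 (edgeR adjusted p = 0.0149). That call was lost without GFP replicate 2 (adjusted p = 0.0545) and once the length trend was removed (0.208).

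The remaining plasma inhibitors were not called. Serpinf2, antiplasmin, ranged from 1108 to 1434 CPM against 903 to 1128 CPM, with a log2 fold change of 0.22 ± 0.15 (edgeR adjusted p = 0.209). Serpind1, heparin cofactor II, ranged from 431 to 522 CPM against 471 to 660.5 CPM, with a log2 fold change of -0.30 ± 0.14 (edgeR adjusted p = 0.0784). Without Yap1S5A replicate 3 or GFP replicate 3 Serpind1 was called lower (adjusted p = 0.0453 and 0.0258), as it was with DESeq2 (0.0331), without the filter on low counts (0.0493) and with copies of other genes summed (0.0488).

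The proteases that serpins inhibit, taken as a list, mostly fell in the same livers. Of 23 tested, 15 fell, beside 30.3% of all genes tested, and 6 rose, beside 33.3%. The list's median log2 fold change was -0.85, beside 0.03 over all genes. The furthest fall was that of F11, coagulation factor XI, at -2.65 ± 0.20 (edgeR adjusted p = 4.4e-08). The furthest rise was that of Ctss, the lysosomal protease cathepsin S of macrophages, at 4.27 ± 0.25 (edgeR adjusted p = 4.7e-09). Of 19 other inhibitors of plasma proteases tested, 7 were higher and 7 lower, shares near those over all genes tested, and they ranged from Timp1, an inhibitor of metalloproteases, at 4.85 ± 0.69 (edgeR adjusted p = 2.5e-05) to Tfpi2, an inhibitor of plasmin and tissue factor complexes, at -1.99 ± 0.23 (edgeR adjusted p = 4.5e-06). Agt, angiotensinogen, a serpin by fold that carries another symbol, was not called at -0.20 ± 0.14 (edgeR adjusted p = 0.211).

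Summed hepatocyte markers overlapped between the groups of livers. The sum over 5 genes ranged from 129100 to 157940 CPM in Yap1S5A-labelled livers and from 127500 to 150270 CPM in GFP livers, with none of the 5 at 0. Within the list 3 of 5 genes were called lower, beside 30.3% of all genes tested. Their log2 fold changes were -1.96 ± 0.19 for Ttr, -0.80 ± 0.17 for Apoa1 and -5.26 ± 0.37 for Cyp2e1 (edgeR adjusted p up to 0.00082). Alb, with a log2 fold change of 0.21 ± 0.15 (edgeR adjusted p = 0.228), and Apob were not called. The overlapping sum therefore does not mean that each marker was unchanged. The part of hepatocyte markers in the fall of clade A was not tested.

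Of the 5 tested members of clade B, the intracellular serpins, 4 rose. Serpinb6a, a widely expressed inhibitor of cathepsin G among others, had 94.6, 85.8, 91.7 and 86.5 CPM in Yap1S5A-labelled livers and 8.54, 10.5, 9.75 and 6.57 CPM in GFP livers. The groups lay about an order of magnitude apart with little spread, and the gene rose by 3.34 ± 0.15 on the log2 scale, 10.1-fold (edgeR adjusted p = 7.5e-10). Serpinb9, an inhibitor of granzyme B that protects cells from their own cytotoxic granules, had 26.5, 17.4, 14.0 and 16.1 CPM against 8.70, 13.5, 7.69 and 6.98 CPM. Its lowest Yap1S5A-labelled liver lay only just above its highest GFP liver, and it rose by 1.0 ± 0.24 (edgeR adjusted p = 0.0019). Serpinb6b, a close relative of Serpinb6a, rose by 2.08 ± 0.24 (edgeR adjusted p = 3.8e-06), and Serpinb8, known as an inhibitor of furin, rose by 1.27 ± 0.22 (edgeR adjusted p = 0.00018).

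The clade B members that did not rise were Serpinb1a and Serpinb1c. Serpinb1a, an inhibitor of neutrophil proteases, had a log2 fold change of -0.50 ± 0.38 (edgeR adjusted p = 0.272), at 1.16 to 2.94 CPM against 1.48 to 4.39 CPM. Serpinb1c had 2 counts in all in each group of livers and was not tested. Exons of Serpinb6a share 52 bases with 1110046J04Rik on the opposite strand, and whether counting used strand is not given in the sources used here.

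Cell type markers moved with clade B. The macrophage and monocyte list rose in 11 of 11 genes, beside 33.3% of all genes tested. Its sum was 2103 to 2376 CPM in Yap1S5A-labelled livers and 93.8 to 157 CPM in GFP livers. The lymphocyte list rose in 3 of 4 genes, with sums of 77.6 to 93.3 CPM against 4.27 to 9.58 CPM, and the neutrophil list in 3 of 3 tested, with sums of 11.9 to 20.3 CPM against 0.854 to 2.55 CPM, where each GFP liver had 1 or 2 of the 4 listed genes at 0. Among lymphocyte genes Ptprc rose furthest, by 4.03 ± 0.21 on the log2 scale. Klrb1c and Cd79b rose less, by 1.61 ± 0.39 and 1.44 ± 0.42. Cd79a was not called, and Cd3e, Cd3g and Nkg7 were not in the table. The bile duct list rose in 2 of 5 genes, Sox9 and Spp1, while Krt19, Krt7 and Epcam were not called, with sums of 1370.2 to 1794 CPM against 33.5 to 61.6 CPM. Spp1 rose by 5.56 ± 0.25 on the log2 scale and Sox9 by 2.06 ± 0.23. The endothelial list rose in 6 of 6 genes, with sums of 281 to 330 CPM against 122 to 132 CPM, and the platelet list in 2 of 3, with sums of 17 to 31.2 CPM against 3.80 to 6.02 CPM. Their part in the rise of clade B, or of the members that follow, was not tested.

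Clade E is represented by Serpine2, protease nexin 1, which inhibits thrombin and urokinase at cell surfaces, had 5.05, 5.96, 3.33 and 5.15 CPM against 3.42, 4.46, 3.43 and 4.93 CPM. Those groups overlapped and the log2 fold change of 0.26 ± 0.23 was not called (edgeR adjusted p = 0.338).

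Of the list of cofactors and clearance receptors of serpin complexes, 8 of 13 tested rose in liver, beside 33.3% of all genes tested. A further 2 fell, beside 30.3%. The largest rise there was that of Plaur, the urokinase receptor, at 4.37 ± 0.30 (edgeR adjusted p = 2.0e-08), and the largest fall was that of Proz, protein Z, at -0.59 ± 0.17 (edgeR adjusted p = 0.0075).

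Serpini1, neuroserpin, an inhibitor of tissue plasminogen activator known from the nervous system, had few reads. Its counts were 25, 11, 17 and 15 in Yap1S5A-labelled livers and 0, 1, 3 and 1 in GFP livers, so the groups did not overlap. It rose by 3.15 ± 0.64 on the log2 scale (edgeR adjusted p = 0.00060), and by 3.96 without GFP replicate 3. Only the Yap1S5A-labelled livers held enough counts to bring it into the test, and that filter favours a call of higher.

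Serpinh1, a chaperone of the endoplasmic reticulum that folds procollagen and inhibits no protease, also rose. It had 50.5, 68.4, 43.9 and 77.1 CPM in Yap1S5A-labelled livers and 15.3, 23, 12.5 and 13.2 CPM in GFP livers. All Yap1S5A-labelled livers were above all GFP livers, and the log2 fold change was 1.90 ± 0.22 (edgeR adjusted p = 4.0e-06). Of the procollagens it folds and their other folding partners, 13 of 18 tested rose, beside 33.3% of all genes tested, and none fell. Their median log2 fold change was 2.12, and Col3a1 rose furthest at 3.94 ± 0.20 (edgeR adjusted p = 1.5e-09). The stellate cell and fibroblast list rose in 4 of 7 genes, including Col1a1 and Col3a1, which both lists hold, and fell in 1, Dcn. Its sum was 753 to 1101 CPM against 170 to 322 CPM, and its part in the rise of Serpinh1 was not tested.

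**Figure D4:**
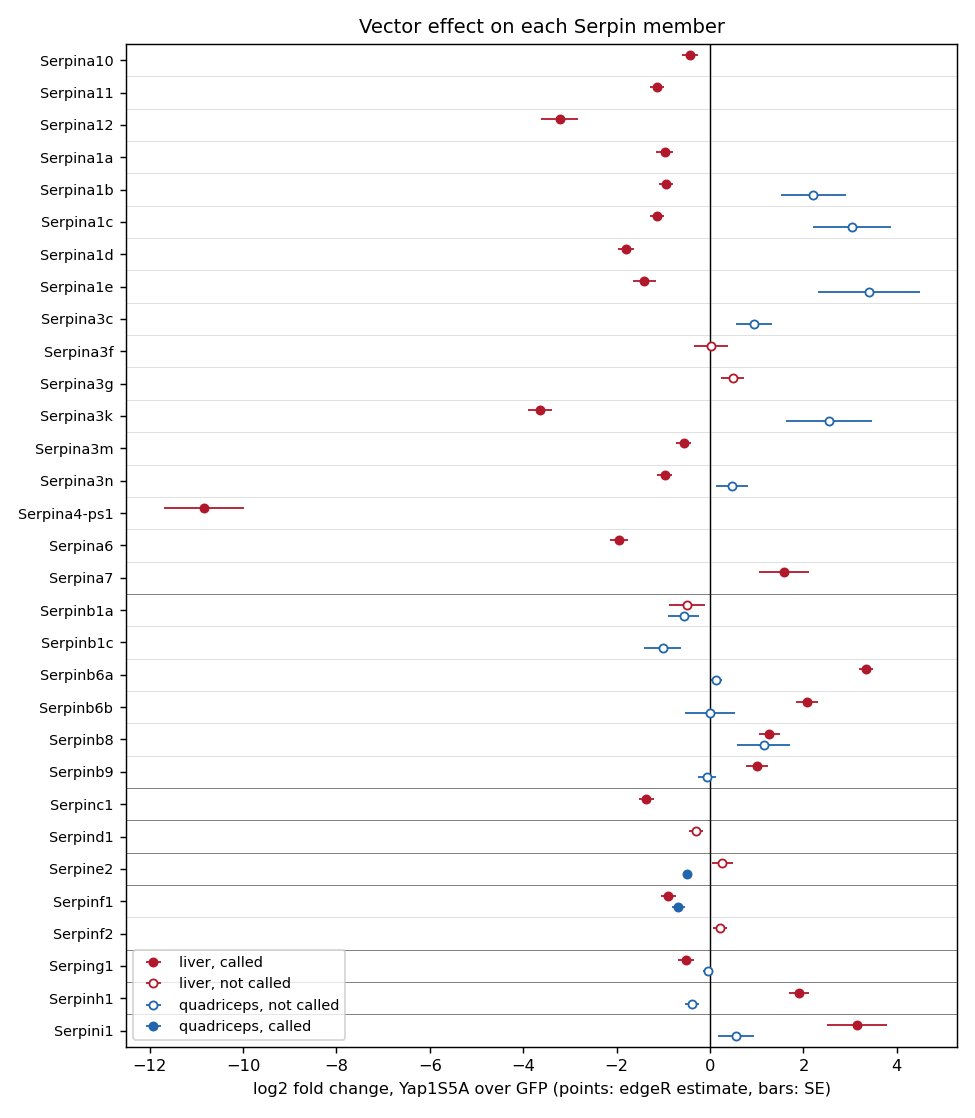
Log2 fold change, Yap1S5A-labelled over GFP, with SE, of each tested Serpin member in liver and in quadriceps, with filled points where edgeR's adjusted p was under 0.05. In liver clade A lies mostly left of 0 and clade B right of it, and in quadriceps Serpine2 and Serpinf1 are the called members.

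DNA near these genes was searched for GGAATG, the letters that TEAD factors, the DNA-binding partners of Yap1, are known to bind. On either strand it was in 3 of the 24 members with a promoter entry and in 14.7% of all 32851 promoters. The 3 members were Serpinb6a and Serpina7, which rose, and Serpina12, which fell. They are shown, on the minus strand with the match or its reverse complement in capitals, since these are the only members where the letters occurred. A match is a description of the sequence and not evidence of binding.
Serpinb6a, chr13:34002986-34003027: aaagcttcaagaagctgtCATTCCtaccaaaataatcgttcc
Serpina7, chrX:139085255-139085296: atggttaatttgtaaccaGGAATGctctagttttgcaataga
Serpina12, chr12:104044670-104044693: GGAATGaccctctacccgaacgct

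In quadriceps the vector comparison called few members. Of 17 members tested, edgeR called 0 higher, beside 4.21% of the 12121 genes tested, and 2 lower, beside 4.82%. The members' median log2 fold change was 0.12, against 0.00 over all genes. Groups did not overlap in 2 tested members that were higher, Serpina1b and Serpina1e, beside 7.33% of tested genes, and in the 2 that fell, beside 8.21%. Serpina1e, with 9, 3, 7 and 6 counts in GFP quadriceps, and Serpina1c, with 10, 4, 5 and 7, entered the test only through the Yap1S5A-labelled libraries. The GFP libraries alone would not have brought in Serpina1b, Serpina3c, Serpina3k or Serpinb8 either, and such entry favours a call of higher. In the other direction, the Yap1S5A-labelled libraries alone would not have brought in Serpinb1c. At an unadjusted p under 0.05, 5 members were higher and 4 lower, and DESeq2 called 4 higher and 2 lower.

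The 2 members that fell were Serpine2 and Serpinf1. Serpine2 had 70.6, 87.4, 76.4 and 87.8 CPM in Yap1S5A-labelled quadriceps and 108, 109.7, 117 and 118 CPM in GFP quadriceps. The groups did not overlap, and it fell by 0.49 ± 0.093 on the log2 scale (edgeR adjusted p = 0.0053). Serpinf1 had 43.6, 36.6, 40 and 35.7 CPM against 48.3, 74.1, 53.7 and 74.0 CPM and fell by 0.68 ± 0.14 (edgeR adjusted p = 0.0092), again without overlap. Muscle fibre markers summed over 6 genes to 116040 to 147520 CPM in the same libraries against 163820 to 189800 CPM, but within the list only Myh4 was called, lower by 0.98 ± 0.13 on the log2 scale (edgeR adjusted p = 0.00076), and the other 5 genes were not. The stellate cell and fibroblast list had 3 of 7 genes lower, Col1a1, Col3a1 and Lum, and 1 higher, Des. Over all genes tested 4.82% were lower and 4.21% higher. The log2 fold changes were -1.53 for Col1a1 and -1.05 for Col3a1. The list's sums, 4888 to 5301 CPM against 4115 to 4750 CPM, were higher and so do not follow the genes called lower. The macrophage list was higher in 9 of 10 tested genes, beside 4.21% of all genes tested, with sums of 167 to 296 CPM against 60 to 112 CPM. Their part in either fall was not tested.

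Several collagen genes fell in quadriceps. Of 18 tested procollagens and folding partners 5 fell, beside 4.82% of all genes tested in quadriceps. They were Col1a1, Col1a2, Col3a1, Col5a1 and Col6a1, lower by 0.59 to 1.53 on the log2 scale. P4hb, a subunit of prolyl hydroxylase, rose by 0.31 ± 0.084 (edgeR adjusted p = 0.0347), and 4.21% of all genes tested were higher. Serpinh1 itself had 62.6, 58.1, 51.5 and 45.4 CPM against 54.5, 87.0, 61.6 and 82.4 CPM. Its groups overlapped, and its log2 fold change of -0.39 ± 0.15 was not called (edgeR adjusted p = 0.140), though it was without GFP replicate 1 (-0.51, adjusted p = 0.0377). Of 12 tested proteases Ctss rose and Plau, Htra1 and Ctsk fell. Of 12 tested cofactors Vtn rose and Hspg2 and Lrpap1 fell, and of 9 other inhibitors Cst6 rose.

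Transcripts of liver serpins were present in quadriceps at trace levels, and most strongly in 2 libraries. The 19 members with a fitted fold of over 100 for GFP liver over GFP quadriceps summed to 59.0, 30.5, 9.98 and 6.4 CPM in Yap1S5A-labelled quadriceps and to 6.70, 5.10, 6.37 and 5.76 CPM in GFP quadriceps. The 5 hepatocyte markers summed to 155, 82.4, 32.7 and 21.5 CPM and to 36.9, 25.5, 26.2 and 45.6 CPM in the same libraries. For Serpina3f and Serpina3g, which are among the 19, that fold rests on 0 and 2 counts in GFP quadriceps and is no bound. Replicates 1 and 2 of the Yap1S5A-labelled quadriceps were highest in both sums, and replicate 4 lay among the GFP libraries in the first and below them in the second. The same 2 libraries were highest in the sum of 4 adipocyte markers, with 272 and 246 CPM against 26.1 to 113 CPM in the other 6. Between the vectors in quadriceps 0 of the 4 adipocyte genes were called. Of the 5 hepatocyte markers 1 was called higher there, beside 4.21% of all genes tested, and 4 were not. The median log2 fold change of the 5 was 1.69. The part of either cell type in these traces was not tested.

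**Figure D5:**
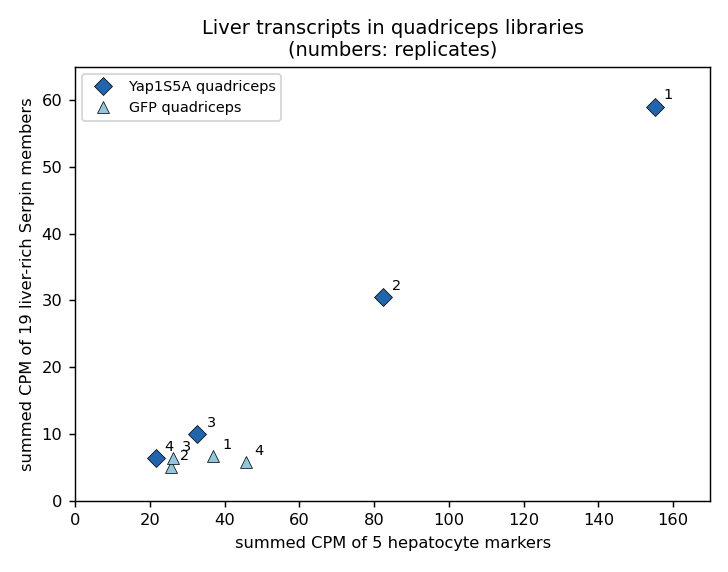
Summed CPM of the 19 liver-rich Serpin members against summed CPM of 5 hepatocyte markers in each of the 8 quadriceps libraries, with replicate numbers. Yap1S5A-labelled replicates 1 and 2 lie apart at 59.0 and 30.5 CPM, and the other 6 libraries lie at 5.10 to 9.98 CPM.

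Serpina1 and Serpina3k followed these libraries. Serpina1e had 10.6, 4.71, 0.868 and 0.640 CPM in Yap1S5A-labelled quadriceps and 0.569, 0.174, 0.464 and 0.388 CPM in GFP quadriceps. Serpina3k had 13, 7.81, 1.61 and 1.07 CPM against 1.64, 0.927, 0.597 and 0.842 CPM. Their log2 fold changes of 3.40 ± 1.1 and 2.55 ± 0.92 were not called (edgeR adjusted p = 0.113 and 0.155), and without replicates 1 and 2, a choice made after seeing the data, they were 0.91 and 0.40 (adjusted p = 0.458 and 0.721). Serpina1b and Serpina1c, at 2.21 ± 0.69 and 3.04 ± 0.83, were likewise not called (edgeR adjusted p = 0.0837 and 0.0591) and went to 0.81 and 1.17 without those libraries. On GFP libraries alone none of these 4 members would have been tested, and such entry favours a call of higher. Other settings called them higher: DESeq2 and the fit over all 16 libraries did so for all 4 (adjusted p from 0.0020 to 0.0256), the replicate block for Serpina1b, Serpina1c and Serpina3k (0.0260 to 0.0311), leaving out Yap1S5A replicate 4 for Serpina1b and Serpina1c (0.0391 and 0.0087), and leaving out Yap1S5A replicate 3 for Serpina1c (0.0467). Serpine2 and Serpinf1 stayed called lower without replicates 1 and 2 (adjusted p = 0.0361 and 0.0489).

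Serpinb6a and Serping1, also among the members with the highest levels in muscle, were not called. Serpinb6a had 242, 202, 234 and 257 CPM in Yap1S5A-labelled quadriceps and 273, 198, 184 and 201 CPM in GFP quadriceps, with a log2 fold change of 0.12 ± 0.12 (edgeR adjusted p = 0.594). Serping1 had 55.3 to 64.4 CPM against 56.0 to 72.1 CPM, at -0.05 ± 0.10 (edgeR adjusted p = 0.820).

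Whether the vector effect differed between the tissues was tested as an interaction over all 16 libraries, which are the same libraries as in both tissue comparisons. Liver and quadriceps libraries share IDs that may mark mice, though no label says so, and this fit did not pair them. Of the 15 members tested in both tissues, 6 had a higher effect in liver, beside 26.7% of the 11275 genes tested in both, and 5 a lower one, beside 24.3%. The differences in log2 fold change were 3.21 ± 0.20 for Serpinb6a and 2.29 ± 0.29 for Serpinh1 (edgeR adjusted p = 4.2e-10 and 3.3e-06). They were 2.58 ± 0.73 for Serpini1, 2.09 ± 0.51 for Serpinb6b, 1.07 ± 0.31 for Serpinb9 and 0.75 ± 0.22 for Serpine2 (edgeR adjusted p from 0.0021 to 0.0077). Serpinb9 was not called without Yap1S5A liver replicate 1 (adjusted p = 0.0544), and Serpine2 was not without Yap1S5A liver replicate 2 (0.0879). Without GFP liver replicate 3 the value of Serpini1 was 3.41. Serpini1 entered the liver test only through the Yap1S5A-labelled livers, which favours a higher effect there.

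The members with a lower effect in liver were all of clade A. The differences were -6.20 ± 0.83 for Serpina3k, -4.82 ± 0.94 for Serpina1e, -4.19 ± 0.76 for Serpina1c, -3.18 ± 0.67 for Serpina1b and -1.44 ± 0.37 for Serpina3n (edgeR adjusted p from 5.7e-06 to 0.0034). Without Yap1S5A quadriceps replicates 1 and 2 they were -4.07, -2.34, -2.32, -1.78 and -1.09 and remained called (adjusted p up to 0.0349). With replicate 1 alone left out, the first 4 were -5.40, -3.73, -3.39 and -2.37. Those 4 were tested in quadriceps only through its Yap1S5A-labelled libraries, which favours a lower effect in liver. The members not called were Serpinb1a, Serpinb8, Serpinf1 and Serping1.

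GFP livers and GFP quadriceps gave the level of each member in the control tissues, and the same libraries are the controls of the vector comparisons. In the fit over all 16 libraries, 24 of 31 members were higher in liver, beside 39.2% of the 13669 genes tested, and 5 were lower, beside 39.3%. Groups did not overlap in 23 members that were higher, beside 35.8% of genes tested, and in 5 that were lower, beside 36.2%. The 14 members not tested in quadriceps alone entered this fit only through liver libraries, which favours a call of higher in liver. Serpinb1c, with 2 counts in all in each group of livers, entered only through quadriceps libraries, which favours a call of lower. Serpina3c and Serpinb1a were not called. The 5 lower in liver were Serpinb1c, Serpinb6a, Serpine2, Serpinh1 and Serpini1, with log2 fold changes of -4.87 ± 0.17 for Serpinb6a, -5.07 ± 0.17 for Serpine2 and -2.43 ± 0.22 for Serpinh1 (edgeR adjusted p from 3.1e-16 to 2.7e-09). Serpina6, Serpina7 and Serpina3f had 0 counts in all GFP quadriceps, and against a floor of 3 counts over the group they were at least 3249-fold, 422-fold and 33.3-fold higher in liver.

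Per kilobase of exon, the order of the members in GFP liver was led by Serpina3k at 6069 ± 1179, Serpina1e at 5184 ± 2093, Serpina1c at 4604 ± 549 and Serpina1b at 3978 ± 611 CPM per kb, neighbours whose ranges overlapped. Serpina1d followed at 2692 ± 421, Serpina1a at 1847 ± 481 and Serpinc1 at 1302 ± 132 CPM per kb. In Yap1S5A-labelled livers Serpina1c, Serpina1b and Serpina1e led at 2082 ± 194, 2038 ± 60.9 and 1944 ± 247 CPM per kb with overlapping ranges, and Serpina3k was eighth at 481 ± 157 CPM per kb, with a range that overlapped those of Serpinc1 and Serpinf2 above it and of Serping1 below it. Among quadriceps the order was led by Serpinb6a, at 125 ± 23.7 CPM per kb in GFP and 135 ± 12.3 in Yap1S5A-labelled libraries. Serpine2 came second in both, at 60.6 ± 2.54 and 42.9 ± 4.55 CPM per kb, followed in varying order by Serpinf1, Serping1 and Serpinh1, all between 24.4 and 46.1 CPM per kb. Every other member had a mean under 4 CPM per kb in both quadriceps groups.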

How the data were processed

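Raw read counts per gene, deposited by the authors as whole numbers beside a symbol and exon coordinates, were the starting point. It also holds scaled values that the authors' sheet calls CPM, a signal scaled to an effective library size, and these deposited values served only to recover library sizes for one alternative. Exonic length was the gene length deposited beside the coordinates. Per the labels' protocols, libraries of frozen bulk tissue were made with an Ion Total RNA-Seq kit. Per the submitters' processing notes, FastQC 0.11.5, STAR 2.4.2a, featureCounts of Subread 1.5.0 and build mm10 were used. Neither the strand setting nor the handling of reads with several matches is given there.

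Groups came from sample titles, 4 libraries each. Chi-square over degrees of freedom between replicates was 12.2 to 63.7, so no pair was merged. The test was edgeR 4.0.16 under R 4.3.3 (filterByExpr, TMM, robust quasi-likelihood, Benjamini-Hochberg over all genes tested, threshold 0.05), each tissue alone, with interaction and tissue comparison over all 16 libraries. The SE was taken as the log2 fold change over the root of F. CPM were scaled to TMM-adjusted library sizes within a tissue, and CPM per kb over all 16 libraries. With 13817718 to 19215472 counts per library, 3 counts correspond to 0.149 to 0.246 CPM, and since reads carry no molecular identifiers the intervals and the floor reflect only counting error. Alternatives were other scalings, DESeq2 1.42.0, no filter, a length trend taken out, near-identical copies summed, a replicate block, 1 fit over all libraries and each library left out. Sequences were read with Python 3.11.15 from RefSeq promoters and GENCODE M21, and windows of 100 bases measured what transcripts share.

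Values in every library are given, in the comparisons that turn on them, for the members that rose or fell most in each clade in liver, those called in quadriceps, those with opposite effects in the tissues, and Serpinh1, Serping1, Serpinc1, Serpina6 and the Serpina1 and Serpina3 copies (of Serpina3c in liver only the highest value). Of each gene list, fold changes are given for the genes that changed most in liver. In all, 1 gene with a matching symbol is not reported here. Members and lists were chosen with earlier results of these data known.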

Additional observations from a re-analysis of the deposited data

Results flagged for a closer look

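Among 82 groups of 4 libraries in which a member averaged at least 1 CPM, 4 held a library far from the other 3, and chance alone flags about 1 in 20. Serpina1e had 3456 CPM in Yap1S5A liver replicate 2, against 2746 to 2795 CPM in the others. Serpina3k had 7799.5 CPM in GFP liver replicate 3, against 11794 to 12227 CPM. Both fell in liver also without that library. Serpina3c had 3.18 CPM in Yap1S5A quadriceps replicate 1, against 1.49 to 1.74 CPM, and Serpinb8 had 3.83 CPM there, against 1.23 to 1.49 CPM; neither was called in the reported quadriceps comparison.

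For 11 members the test of the difference itself showed unequal vector effects in the tissues. The liver effect minus the quadriceps effect was 3.21 for Serpinb6a, 2.58 for Serpini1, 2.29 for Serpinh1, 2.09 for Serpinb6b, 1.07 for Serpinb9 and 0.75 for Serpine2 on the log2 scale. It was -6.20 for Serpina3k, -4.82 for Serpina1e, -4.19 for Serpina1c, -3.18 for Serpina1b and -1.44 for Serpina3n. For the last 5, Yap1S5A quadriceps replicates 1 and 2, which have the highest hepatocyte marker sums, enter the difference, and its sign was the same without them. Of these members all but Serpina3n were tested in quadriceps only through its Yap1S5A-labelled libraries.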

How the results depend on the processing

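In liver the counts of members called stayed within 6 to 8 higher and 11 to 18 lower under all settings run, with 6 and 11 when the Serpina1, Serpina3, Serpinb1 and Serpinb6 copies were each summed. Of the members' single values in liver under these settings, 453 kept their direction and call, 15 lost a call and 8 gained one, and in quadriceps 270 kept theirs, 0 lost a call and 16 gained one. No call changed direction. In quadriceps the count of members called higher, 0 in the reported fit, was 4 with DESeq2 and 7 in 1 fit over all 16 libraries, and ranged from 0 to 3 when 1 library was left out, with 1 without Yap1S5A replicate 3, 3 without Yap1S5A replicate 4 and 1 without GFP replicate 3. It was 0 without Yap1S5A quadriceps replicates 1 and 2, a setting chosen after seeing the data. Summing copies left 2 members with a lower effect in liver than in quadriceps, and 15 higher in GFP liver than in GFP quadriceps, since fewer members then remained. The cause of the other changes was not tested.

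Deviations from the group mean gave no clear sign of pairing by replicate number, but such correlations cannot show that samples are unpaired. Same-numbered libraries of the 2 vectors were correlated at -0.112 to 0.0152 in liver and -0.276 to 0.123 in quadriceps. Libraries of the 2 tissues with the same ID were correlated at -0.0449 to 0.0834. The reported interaction and tissue fits left IDs unpaired, and with a block for the ID each of their calls held. With a replicate block the liver counts were 8 higher and 16 lower, and the quadriceps counts 3 higher and 2 lower.

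Signs changed only for values that were not called. Serpina3f in liver was -0.0148 without the filter on low counts and ranged from -0.32 to 0.30 with 1 library left out. Serpinb6b in quadriceps was -0.0078 with the authors' library sizes, -0.0065 with the length trend removed, -0.0254 with the replicate block, -0.0174 in the fit over all libraries and -0.30 to 0.28 with 1 library left out. With 1 library left out, Serping1 in quadriceps ranged from -0.10 to 0.0279 and Serpinb9 from -0.15 to 0.0174. Depth limits Serpina4-ps1, Serpinb1c, Serpini1 and most liver serpins in quadriceps, where counts are near 0.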
